A study of Bos taurus with 6 samples.

Results

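The zinc finger genes with a numbered ZNF or ZFP symbol were followed in 6 single bovine morulae. Gene symbols that began with ZNF or ZFP and a digit were taken, without ZFP36 and its relatives and without symbols that shared a locus with another gene. The rule gave 172 genes, 167 ZNF and 5 ZFP, among 13683 annotated symbols. Of these, 162 had a value in every library, and 161 could be set in 1 table with all other genes. The other 10 of the 172 were merged with a neighbour in at least 1 library. RefSeq lists 319 cattle symbols of this form, and all 172 matched one of them.

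Each library was made from the polyA RNA of 1 morula with a full-length kit for low input. The 3 control morulae developed in 0.1% DMSO. The 3 MAT2A-inhibited embryos, called FIDAS-5 morulae below, developed in 20 µM FIDAS-5, an inhibitor of the enzyme that makes S-adenosylmethionine, the methyl donor of DNA and histone methylation, and the DMSO content of that medium is not given in the labels. All 6 embryos came from in vitro fertilization, were exposed from 72 h (day 3, 8 to 16 cells) to 144 h (day 6) after insemination, and were held at 5% oxygen in synthetic oviduct fluid with BSA. The breed, sire and sex of the embryos are not given, and neither is whether their cultures were separate. The p-values below therefore rest on the spread among these 6 embryos only.

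Most ZNF proteins carry arrays of C2H2 fingers, in which 2 cysteines and 2 histidines hold a zinc ion and each finger contacts a few bases of DNA. Many also carry a KRAB domain, which recruits TRIM28 and, through it, the histone H3 lysine 9 methyltransferase SETDB1, and so silences transposons and keeps imprinted regions methylated in early embryos. Both histone and DNA methyltransferases use S-adenosylmethionine. Other members of the ZNF name series have no KRAB domain and act in ribosome assembly, RNA processing or mitosis.

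Levels are FPKM, fragments scaled to transcript length and library size. Being per length, they can be set beside each other between genes. A limit is that the extent of some loci differed between libraries, as described below. The relative depth of the libraries was 1.22, 1.15 and 1.29 for controls 1 to 3 and 1.16, 1 and 1.24 for FIDAS-5 morulae 1 to 3. Summed FPKM of annotated genes was 922067 to 975224. Among markers of these stages, POU5F1 was at 254.8 to 431.0 FPKM with overlap between the groups. NANOG and DPPA3 were lower without overlap in FIDAS-5 morulae, SOX2 was higher without overlap (limma adjusted p = 0.701 or above for all 3), and KRT8 spanned 4.49 to 400.5 FPKM among the controls. Their part in the results below was not tested. The Y-linked gene DDX3Y was listed at 0 in 4 libraries and was at 14.96 and 7.94 FPKM in FIDAS-5 morulae 2 and 3. Of 9 cumulus and stroma markers, PTX3 and COL3A1 were listed at 0 throughout. The summed level of the 9 was 60.2 to 128.9 FPKM in the controls, against 43.5 to 82.9 in FIDAS-5 morulae, most of it SERPINE2. DCN, LUM and VIM stood out in control 2, at 11.002, 4.81 and 0.501 FPKM. In every other library they were at or below 0.730, 0.739 and 0.0109 FPKM. COL1A2 was lowest in control 2, at 0.231 FPKM. The part of such transcripts in the other values of control 2 was not tested. In a whole embryo, fewer cells of a type and less RNA per cell cannot be told apart.

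Zinc finger genes were widely detected at low levels. Of the 162 genes with a value in every library, 82 reached 1 FPKM in all 6 embryos and 25 in none. Their median mean level was 2.81 FPKM, against 1.95 FPKM over all genes of the table. At the top of the range they were scarcer: 1.85% of zinc finger genes had a mean of 100 FPKM or more, against 8.75% of all genes. At the bottom, 2.47% were listed at 0 in all 6 libraries, against 17.04% of all genes. Those 4 were ZNF362, ZNF423, ZNF697 and ZNF787. By mean level, 3 genes were above 100 FPKM, 25 between 10 and 100, 87 between 1 and 10 and 47 below 1.

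Together the 162 genes gave 1864, 1808 and 1756 FPKM in the controls, against 1652, 1979 and 1710 FPKM in FIDAS-5 morulae. A single gene, ZNF280B, described below, supplied 201.0 and 187.7 FPKM of the last pair. Without it the sum was 1804 ± 61.1 FPKM in the controls, against 1651 ± 128 FPKM in FIDAS-5 morulae (SD, n = 3 each). The corresponding share of all annotated FPKM was 0.191 ± 0.0104% and 0.173 ± 0.0135%. The ranges of the sum overlapped, because FIDAS-5 morula 2, at 1778 FPKM, lay above control 3, at 1742 FPKM. ZNF706, ZNF593, ZNF207 and ZNF330 made up 42.8% of the sum.

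**Figure D1:**
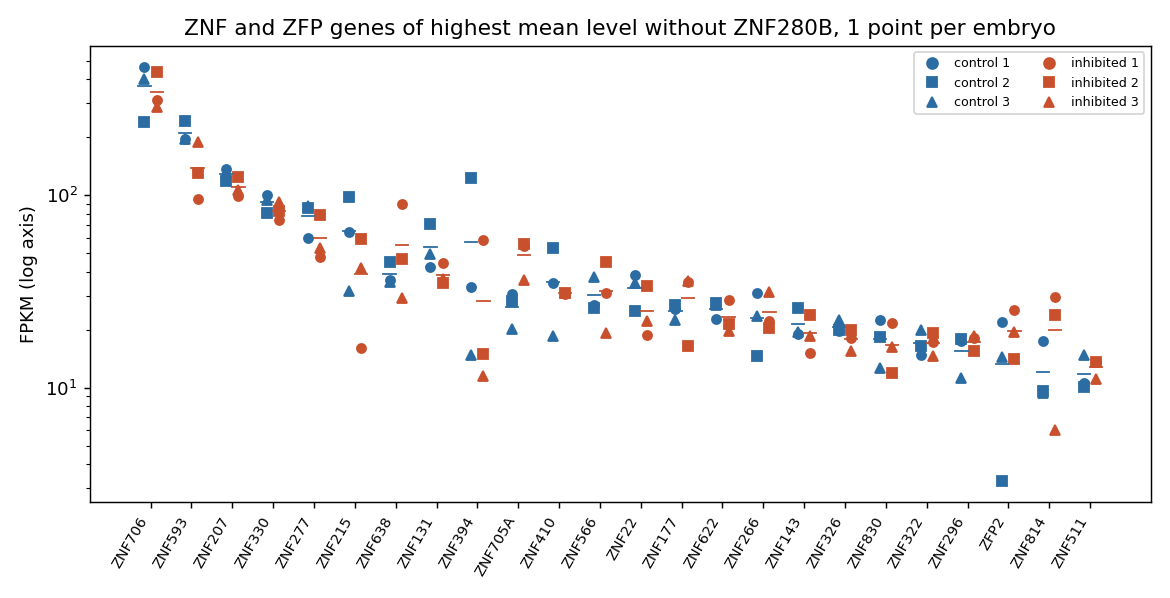
FPKM on a log axis of the zinc finger genes with the highest mean level, ZNF280B left out; each point is 1 embryo, blue for control and red for MAT2A-inhibited, and short lines are group means. ZNF706 and ZNF593 stand at the top, the embryos of ZNF394 span 11.5 to 122.4 FPKM, and the groups are apart for ZNF593 and ZNF705A.

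The highest gene, ZNF706 (bosTau8 chromosome 14, 65337750 to 65348431), encodes a small protein that promotes the exit of mouse embryonic stem cells from self-renewal. It was at 465.4, 240.3 and 401.0 FPKM in the controls, and at 312.6, 437.8 and 286.2 FPKM in FIDAS-5 morulae. The 2 groups covered nearly the same range, and the difference on the log2(FPKM + 1) scale, MAT2A-inhibited minus control, was -0.07 ± 0.29 (SE, limma adjusted p = 0.964).

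Genes that act on RNA, ribosomes or the spindle held the next places. ZNF593, the counterpart of a yeast export factor of the large ribosomal subunit (chromosome 2, 127523710 to 127524790), was at 195.0, 242.4 and 196.8 FPKM in the controls, and at 95.1, 129.9 and 188.8 FPKM in FIDAS-5 morulae. Every control lay above every FIDAS-5 morula, although control 1 and FIDAS-5 morula 3 were close. The log2 difference was -0.66 ± 0.27 (SE, limma adjusted p = 0.746). It was -0.42 without FIDAS-5 morula 1.

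ZNF207, also called BuGZ, loads the checkpoint protein BUB3 onto kinetochores. It was among the steadiest genes, at 136.7, 118.8 and 130.6 FPKM in the controls, against 99.6, 124.0 and 106.9 FPKM in FIDAS-5 morulae. ZNF330, a nucleolar protein, was at 99.6, 81.1 and 94.7 FPKM against 74.6, 83.1 and 91.7 FPKM. The groups of both genes overlapped.

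The remaining genes of this list were lower. ZNF638, a nuclear matrix protein that binds cytidine-rich DNA, was at 36.3, 44.9 and 35.4 FPKM in the controls, against 89.7, 46.5 and 29.4 FPKM in FIDAS-5 morulae, where embryo 1 stood apart. ZNF622, a factor of the pre-60S ribosome, ranged from 19.6 to 28.6 FPKM over the 6 embryos. ZNF326, which couples splicing to elongation, ranged from 15.5 to 22.5 FPKM, and ZNF830, of the DNA damage response, from 11.96 to 22.6 FPKM. ZNF346, which binds double-stranded RNA, was at 1.86, 2.54 and 1.54 FPKM in the controls, against 1.32, 0.834 and 0.0745 FPKM in FIDAS-5 morulae, with no overlap. ZNF385A was listed at 0 in 5 libraries.

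Of the 15 names on the list, 9 had a value in every library and 8 could be tested. Of these 8, 0 passed the adjusted threshold, 1, ZNF593, had an unadjusted limma p below 0.05, 7 had a log2 difference below 0 and 1, ZNF638, above 0. Over all genes tested, 54.2% of differences were above 0. Their median difference was -0.18, against 0.04 over all genes tested. ZNF593 and ZNF346 were the 2 members of the list whose groups did not overlap. Over all genes tested, 13.4% did not overlap and 6.64% had an unadjusted p below 0.05. In FIDAS-5 morulae the summed level of the list was 428.8 to 468.3 FPKM, below the 521.0 to 555.6 FPKM of controls. ZNF593, at 211.4 ± 26.9 and 137.9 ± 47.3 FPKM (SD, n = 3), supplied most of that gap.

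Transcriptional activators and factors bound at promoters showed no common direction. ZNF410, which activates CHD4, was at 34.8, 53.2 and 18.6 FPKM in the controls, and at 30.8, 30.9 and 31.0 FPKM in FIDAS-5 morulae, so the controls lay on both sides of 3 nearly equal values. ZNF143, an activator of many promoters and of small nuclear RNA genes, ranged from 19.0 to 25.9 FPKM in controls and from 15.1 to 23.9 FPKM in FIDAS-5 morulae. ZNF24, a SCAN domain protein, ranged from 9.96 to 14.4 FPKM over all embryos. ZNF148 ranged from 2.42 to 5.64 FPKM and ZNF263 from 1.86 to 2.64 FPKM.

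ZNF384, which binds runs of adenine, was the one gene of this list without overlap, at 2.67, 1.88 and 2.22 FPKM in the controls, against 2.92, 5.53 and 3.19 FPKM in FIDAS-5 morulae. Its log2 difference was 0.55 ± 0.33 (SE, limma adjusted p = 0.782). A separate unannotated locus beside that of ZNF384 held 7.89 FPKM in control 2, the embryo with its lowest value. The part of this locus in the values of ZNF384 was not tested. ZNF740 ranged from 0.353 to 1.58 FPKM, ZNF335 from 0.427 to 2.87 FPKM and ZNF711 from 0.0852 to 1.44 FPKM. Of the 10 names, 9 had a value in every library and 7 could be tested. Of these, 4 differences were above 0, 3 below, and 0 had even an unadjusted limma p below 0.05. The median was 0.03. The 1 of 7 without overlap stands beside 13.4% of all genes tested, and the 4 of 7 above 0 beside 54.2%.

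Among genes linked to pluripotency, ZNF296 and ZNF322 stood at a steady level in every embryo. ZNF296 was at 17.6, 17.97 and 11.2 FPKM in the controls, against 18.03, 15.6 and 18.5 FPKM in FIDAS-5 morulae. ZNF322 was at 14.9, 16.5 and 20.0 FPKM against 17.3, 19.3 and 14.6 FPKM, a log2 difference of -0.00486 ± 0.25 (SE, limma adjusted p = 0.995). ZNF462 and ZNF398 stayed below 0.3 FPKM in every library. Separate unannotated loci beside that of ZNF398 held 0.839 and 1.94 FPKM in controls 1 and 3, and 1.37 and 1.03 FPKM in FIDAS-5 morulae 1 and 2. Their part in its low values was not tested. ZNF521, a factor of neural fate, was at 1.34 FPKM in control 2 and listed at 0 in the other 5 libraries.

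ZNF445, which with ZFP57 protects imprinted regions, was at 0.162, 2.07 and 1.04 FPKM in the controls, against 0.0299, 1.63 and 0.0169 FPKM in FIDAS-5 morulae. Each group held both a high and a low embryo, and the log2 difference was -0.47 ± 0.52 (SE, limma adjusted p = 0.854). Separate unannotated loci beside that of ZNF445 held 2.55, 3.07 and 7.25 FPKM in controls 1 to 3. They held 4.19 FPKM in FIDAS-5 morula 1, and 5.50 and 0.991 FPKM in FIDAS-5 morula 3. FIDAS-5 morula 2 had none. These loci are not part of the values of ZNF445, and their part in its low values was not tested. ZFP57 was not analysed here, nor was ZFP42.

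Of 6 zinc finger cofactors of chromatin complexes with a value in every library, ZNF644, ZNF512 and ZNF292 were at a few FPKM, ZNF592 and ZNF687 were lower, and ZNF423 was listed at 0 in all 6. ZNF644, a partner of the histone methyltransferases EHMT1 and EHMT2, was at 5.26, 4.45 and 6.15 FPKM in the controls, against 4.23, 1.67 and 5.87 FPKM in FIDAS-5 morulae. ZNF512 ranged from 1.81 to 6.13 FPKM and ZNF292 from 3.01 to 5.81 FPKM over the 6 embryos. ZNF592 and ZNF687, which share a complex with ZMYND8, were at or below 1.32 FPKM. Of 15 names, 6 had a value in every library and 3 could be tested. Of these, 0 passed by limma and 0 had an unadjusted p below 0.05.

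Stress and signalling genes were mostly low. ZNF350, a BRCA1 partner, was at 7.90, 8.63 and 7.36 FPKM in the controls, against 12.004, 14.97 and 6.41 FPKM in FIDAS-5 morulae, where embryo 3 lay below all controls. ZNF274, which brings SETDB1 to the ends of zinc finger genes, ranged from 2.31 to 5.73 FPKM, and ZNF746, a repressor of PGC-1 alpha, from 0.639 to 1.76 FPKM. ZNF420, a p53 inhibitor, was at 0.757, 0 and 1.53 FPKM in the controls and below 0.02 FPKM in FIDAS-5 morulae. ZNF703 did not exceed 0.0246 FPKM. Of 9 names, 4 could be tested and 0 passed by limma, and 1 had an unadjusted p below 0.05, beside 6.64% of all genes. That gene was ZNF268, which entered the test only through the controls and is described below.

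Other members of the top ranks belong to no list. ZNF277 was at 59.6, 86.3 and 87.7 FPKM in the controls, against 47.8, 79.2 and 53.2 FPKM in FIDAS-5 morulae. ZNF131, a BTB domain protein whose 2 loci were summed, was at 42.1, 70.6 and 49.4 FPKM against 44.2, 35.0 and 36.8 FPKM. Both genes overlapped between groups. The KRAB gene ZNF394 varied most among the abundant genes, at 33.3, 122.4 and 14.7 FPKM in the controls, against 58.3, 15.01 and 11.5 FPKM in FIDAS-5 morulae.

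By position, 47 of the 172 genes lie on chromosome 18, 18 on chromosome 25 and 12 on chromosome 7, with the rest on the other 24 of 27 chromosomes. Neighbouring zinc finger genes arose by tandem duplication and share sequence, so reads between copies are uncertain. The 42 genes of chromosome 18 with a value in every library had a median mean level of 3.08 FPKM, against 2.77 FPKM for the others. The highest of them was ZNF566, at 27.0, 25.8 and 37.6 FPKM in the controls, against 30.9, 45.1 and 19.2 FPKM in FIDAS-5 morulae. Its locus spanned 29219 to 186812 bases between libraries. Unannotated loci beside it reached 15.9, 15.6 and 20.6 FPKM in control 1, control 2 and FIDAS-5 morula 3, the embryos with the lowest values. In control 3 and FIDAS-5 morulae 1 and 2 they reached 4.33, 2.09 and 6.94 FPKM. The part of these loci in the values of ZNF566 was not tested. Of the 29 tested on chromosome 18, 20 had a difference above 0 (median 0.14). Among the 84 tested elsewhere, 39 did (median -0.01), again beside 54.2% of all genes tested. The difference between chromosome 18 and the rest was not tested.

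Merged loci hid 1 of the most abundant genes of that chromosome. ZNF382, a KRAB gene (47150305 to 47180829), had its own value in 4 libraries, 95.3 and 58.9 FPKM for controls 2 and 3 and 84.3 and 118.8 FPKM in FIDAS-5 morulae 2 and 3. In control 1 and FIDAS-5 morula 1 it shared a locus with ZNF567, at 114.5 and 81.4 FPKM. ZNF567 alone was at 5.60 to 11.9 FPKM where it was separate. The merged value thus lay near that of ZNF382, and both groups held high values.

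ZNF45 and ZNF226 were merged in 3 of the 6 libraries, at 37.4 and 41.7 FPKM for controls 1 and 2 and, together with ZNF227, at 33.1 FPKM in FIDAS-5 morula 2. Where they were separate, ZNF45 was at 30.6 FPKM in control 3 and at 21.6 and 11.1 FPKM in FIDAS-5 morulae 1 and 3. ZNF226 was at 11.5, 3.53 and 10.8 FPKM in the same 3 embryos. ZNF432 and ZNF613 were found merged in every library, at 6.95 to 11.01 FPKM, and never apart. No comparison between groups was made for merged genes.

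ZNF280B was high in some embryos and near 0 in others, and its values followed those of Y-linked genes. The files place it at 3 loci on chromosome 17, here called copies A, B and C. Copy A (51251539 to 51262528) was at 0.00605, 0 and 0 FPKM in the controls, and at 0.0108, 10.98 and 13.4 FPKM in FIDAS-5 morulae. Copy B, which starts at 51413319 and ends at 51534036 in 5 of the libraries, was at 0.00653, 0 and 0.0106 FPKM in the controls, and at 0.0233, 154.4 and 174.3 FPKM in FIDAS-5 morulae. Both copies were thus near 0 in 4 embryos and high in 2 of the 3 FIDAS-5 embryos.

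Those 2 embryos were also the ones with Y-linked transcripts. EIF1AY was listed at 0 in all 3 controls and in FIDAS-5 morula 1 and was at 38.2 and 106.9 FPKM in FIDAS-5 morulae 2 and 3. USP9Y was at 0.0256 to 0.193 FPKM in the first 4 and at 4.10 and 1.496 FPKM in the last 2. XIST, the RNA of the inactive X, was at 7.49 to 61.3 FPKM in the first 4 and at 0.164 and 0.127 FPKM in the last 2. In cattle a related gene, named ZNF280BY, lies on the Y chromosome, and RefSeq lists it. The group difference of copies A and B and the presence of Y-linked transcripts cannot be told apart, and the only FIDAS-5 embryo without Y-linked transcripts was near 0 for both.

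Copy C (73002286 to 73010751), next to ZNF280A, behaved otherwise. It was separate in control 3, at 14.8 FPKM, and in FIDAS-5 morula 2, at 35.6 FPKM. Merged with ZNF280A, it was at 26.6 and 47.6 FPKM for controls 1 and 2 and at 32.4 and 31.9 FPKM in FIDAS-5 morulae 1 and 3. It was therefore present in embryos with and without Y-linked transcripts. Because of these merged loci ZNF280B entered no test.

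**Figure D2:**
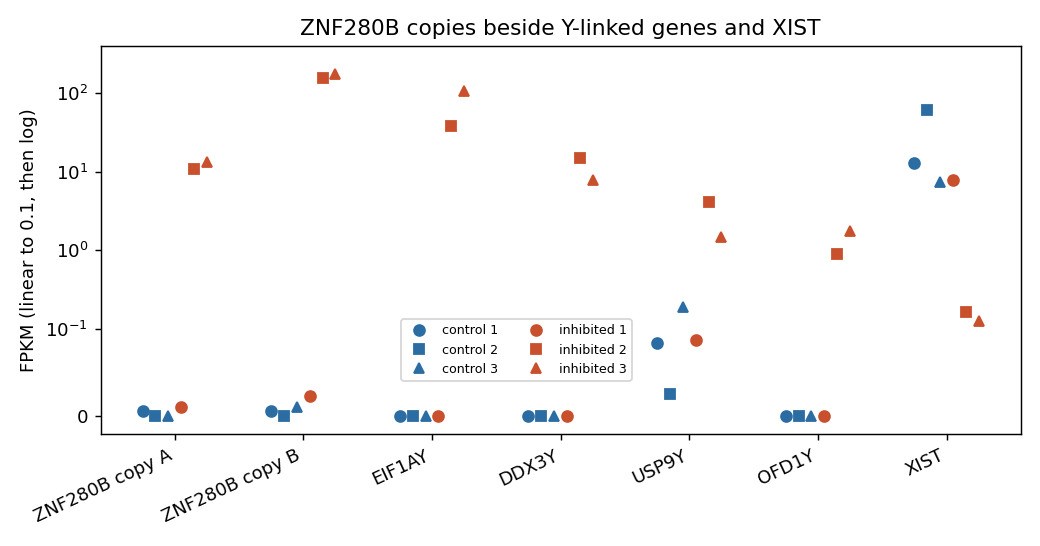
FPKM in each of the 6 embryos of ZNF280B copies A and B beside 4 Y-linked genes and XIST, on an axis that is linear up to 0.1 and logarithmic above. FIDAS-5 morulae 2 and 3 are high for both copies and for EIF1AY, DDX3Y, USP9Y and OFD1Y and low for XIST, and the other 4 embryos show the reverse.

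Of the 5 zinc finger genes on the X chromosome, 3 could be tested. ZNF674 was at 1.41, 4.77 and 1.05 FPKM in the controls, against 6.37, 1.93 and 10.2 FPKM in FIDAS-5 morulae, a log2 difference of 1.03 ± 0.60 (SE, limma adjusted p = 0.780). ZNF75D was at 5.37, 2.34 and 12.9 FPKM against 4.40, 5.86 and 6.86 FPKM, and ZNF449 at 1.58, 3.27 and 3.30 FPKM against 2.41, 1.63 and 0.984 FPKM. The groups of all 3 overlapped. ZNF182, which was not tested, ranged from 0.845 to 2.52 FPKM.

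Zinc finger genes varied between embryos of 1 group about as much as other genes did. The median SD within groups, on the log2(FPKM + 1) scale, was 0.41 over the 113 zinc finger genes tested and 0.40 over all 7319 genes tested. It was 0.38 in controls and 0.34 in FIDAS-5 morulae. Among genes with a mean of 5 FPKM or more, the steadiest was ZNF207, with an SD of 0.13 and a highest value 1.37 times the lowest. ZNF326 followed at 0.14, ZNF330 at 0.15, ZNF419 at 0.17 and ZNF322 at 0.20. At the other end stood ZNF394 at 1.36, ZNF576 at 1.07, ZFP2 at 0.94, ZNF599 at 0.89 and ZNF215 at 0.88.

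The variable genes were high in different embryos. ZNF394 was highest in control 2, whereas ZFP2 was lowest there, at 3.28 FPKM against 14.2 to 25.2 FPKM in the other 5 embryos. ZNF599 was lowest in FIDAS-5 morula 2, at 1.23 FPKM against 4.49 to 10.3 FPKM elsewhere. ZNF215, which is imprinted in some human tissues, was lowest in FIDAS-5 morula 1, at 16.0 FPKM against 31.8 to 98.2 FPKM elsewhere. ZNF438, just below the mean of 5 FPKM, was at 8.65 FPKM in control 3 and 14.1 FPKM in FIDAS-5 morula 1 and at 0.911 to 3.15 FPKM in the other 4.

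**Figure D3:**
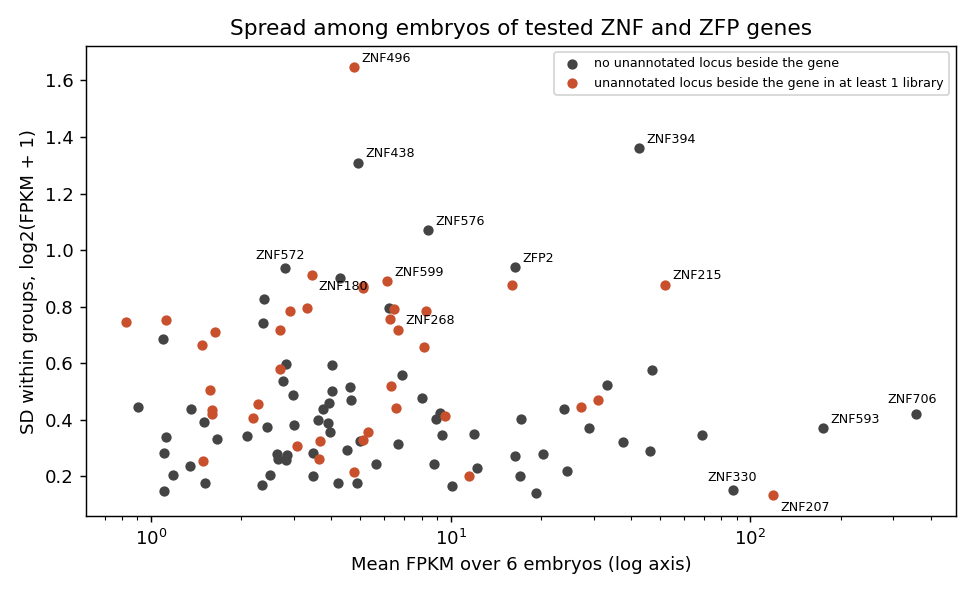
Mean FPKM over the 6 embryos (log axis) against the SD within groups of log2(FPKM + 1) for the 113 zinc finger genes tested; red points are genes with an unannotated locus of 1000 bases or more beside their own in at least 1 library. Such a locus lies outside the gene's own in that library but overlaps its extent over the 6 libraries. ZNF207 and ZNF330 lie at the bottom right, at 0.13 and 0.15, and ZNF496, at 1.65, is the most variable gene.

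Some high and low values went with how far a gene's locus extended, which the deposited tables give separately for each library. ZNF496, a KRAB and SCAN domain gene on chromosome 7, was at 0.208, 5.79 and 0.329 FPKM in the controls, against 11.5, 10.5 and 0.283 FPKM in FIDAS-5 morulae. In the 3 high embryos its locus began between 41931087 and 41931630. In the 3 low embryos it began at 41934327, and a separate unannotated locus from about 41931629 held 14.2 FPKM in control 1, 28.8 in control 3 and 23.9 in FIDAS-5 morula 3. ZNF215 in FIDAS-5 morula 1 had a locus of 20241 bases, against 27405 to 27416 bases in the other 5, with 2 unannotated loci of 28.1 and 7.61 FPKM at the missing end. ZNF554 in control 3 was at 1.93 FPKM with a locus of 11768 bases, beside an unannotated locus of 34014 bases at 22.9 FPKM, and was at 17.9 to 30.6 FPKM in the 4 libraries where its own locus covered both. A neighbouring locus was counted where it lay outside the gene's own locus in that library but overlapped its extent over the 6 libraries. The count thus favours genes whose extent varied. Of the 113 tested genes, the 39 with such a locus in some library had a median SD of 0.58, and the 74 without one had 0.36. Their median mean levels were 4.77 and 4.39 FPKM. Of the 10 genes with the largest SD, 4 had such a locus, and so did ZNF207, the steadiest gene. The part of these loci in the spread was not tested.

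To ask whether MAT2A inhibition went with a change of zinc finger genes, the 113 genes that reached 1 FPKM in 3 or more libraries were read from a limma fit over all 7319 such genes. No zinc finger gene passed the adjusted threshold of 0.05: 0 of 113 passed (smallest adjusted p = 0.153), beside 3 of all genes tested (0.0410%). By the unadjusted p, 6 of 113 were below 0.05, or 5.31%, beside 6.64% of all genes. Of these, 4 were higher in FIDAS-5 morulae (background 3.70%) and 2 lower (background 2.94%). Differences above 0 numbered 59 and those below 0 numbered 54. The median was 0.01, against 0.04 over all genes, and the median SE of a gene was 0.35.

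Groups that did not overlap were found for 12 zinc finger genes, or 10.6%, beside 13.4% of all genes. Of the 12, 8 were higher in FIDAS-5 morulae (background 8.27%) and 4 lower (background 5.18%). These shares are near the background. A log2 difference beyond 1 was found for 5 genes, ZNF268, ZNF576, ZFP3, ZNF674 and ZNF496, beside 6.13% of all genes.

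**Figure D4:**
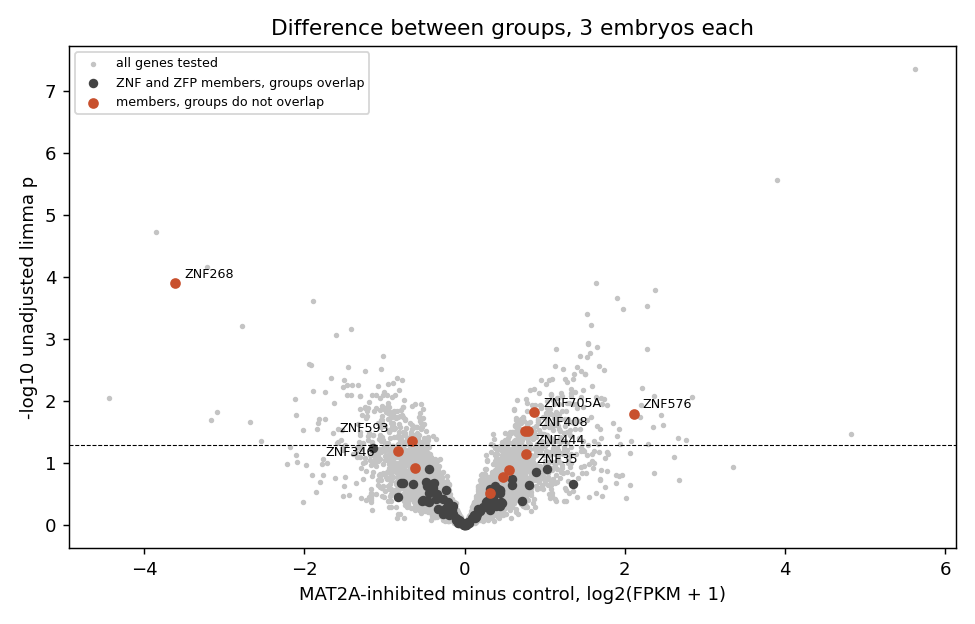
Difference between groups on the log2(FPKM + 1) scale against -log10 of the unadjusted limma p, for all 7319 genes tested (grey) and the 113 zinc finger genes (dark where the 3 embryos of each group overlap, red where they do not); the dashed line marks an unadjusted p of 0.05. Among the zinc finger genes, ZNF268, at -3.61, lies farthest from 0, and all but 5 lie within 1 of 0.

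ZNF268, a KRAB gene of chromosome 17, had the smallest p. It was at 10.8, 5.15 and 24.1 FPKM in the controls and was listed at 0 in all 3 FIDAS-5 morulae, with deposited upper bounds of 0.121, 0.146 and 0.130 FPKM. The groups did not overlap, and the difference on the log2(FPKM + 1) scale was -3.61 ± 0.50 (SE, limma adjusted p = 0.153). That value is set by the pseudocount, here 1, and is no fold change. ZNF268 met the minimum of 1 FPKM in 3 libraries only through the 3 controls, so a difference was built into its entry to the test, and it left the test when any 1 control was removed. With libraries weighted by their quality its adjusted p was 0.0475, under the same limit.

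The locus of ZNF268 differed between the groups as well. In controls it ran from about 45191289 to between 45225777 and 45225789. In FIDAS-5 morulae it ended at 45218104, and an unannotated locus beyond that end, between 45222035 and 45225989, held 5.81, 4.40 and 7.62 FPKM. In controls, unannotated loci at the same place, inside the gene's own locus, held 3.81, 1.67 and 6.17 FPKM. Fragments were therefore counted over this last stretch in all 6 embryos. The part of the locus extent in the value of 0 was not tested.

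Higher values in FIDAS-5 morulae were led by ZNF705A, a KRAB gene (chromosome 27, 4996676 to 5000242). It was at 30.5, 28.1 and 20.2 FPKM in the controls, against 54.2, 56.1 and 36.4 FPKM in FIDAS-5 morulae. The groups were apart, with means of 26.3 ± 5.42 and 48.9 ± 10.9 FPKM (SD, n = 3). The log2 difference was 0.87 ± 0.28 (SE, limma adjusted p = 0.701). ZNF705A was the highest-expressed gene among the 8 that were higher without overlap.

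ZNF576 (chromosome 18, 52156627 to 52159134) was at 5.83 FPKM in control 1 and 4.41 FPKM in control 3, at a listed 0 in control 2, and at 13.7, 12.5 and 14.1 FPKM in FIDAS-5 morulae. The FIDAS-5 embryos were close to each other and above every control. The log2 difference of 2.11 ± 0.68 (SE, limma adjusted p = 0.701) dropped to 1.24 without control 2. The locus of ZNF576 spanned from 2508 bases, as given above, to 5552 bases between libraries. The part of this extent in the values of ZNF576 was not tested.

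ZNF444, which binds the promoter of a scavenger receptor gene, was at 2.83, 3.13 and 4.30 FPKM in the controls, against 6.61, 6.16 and 6.29 FPKM in FIDAS-5 morulae. Its log2 difference was 0.75 ± 0.28 (SE, limma adjusted p = 0.746). ZNF408, a gene linked to retinal vessel growth, was at 1.39, 2.14 and 1.19 FPKM against 3.33, 3.17 and 3.72 FPKM, a log2 difference of 0.79 ± 0.30 (SE, limma adjusted p = 0.746). In both genes the FIDAS-5 embryos lay within a narrow range above the controls. ZNF35 was at 1.06, 0.372 and 1.10 FPKM against 3.24, 1.34 and 1.92 FPKM, a log2 difference of 0.76 ± 0.36 (SE, limma adjusted p = 0.750).

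On the lower side, the 5 genes with the smallest p were ZNF268, ZNF593, ZFP3, ZNF346 and ZNF181. ZNF181, a KRAB gene of chromosome 18, was at 9.10, 15.9 and 9.21 FPKM in the controls, against 8.77, 7.73 and 4.64 FPKM in FIDAS-5 morulae, a log2 difference of -0.62 ± 0.35 (SE, limma adjusted p = 0.780). The groups were apart by less than 1 FPKM, and the difference was -0.37 without control 2, -0.38 without FIDAS-5 morula 3 and -0.30 without both embryos with Y-linked transcripts. ZFP3 was at 2.60, 6.00 and 3.20 FPKM against 3.28, 0.334 and 0.726 FPKM, so the low values were those of the 2 embryos with Y-linked transcripts. Its log2 difference of -1.14 ± 0.51 (SE, limma adjusted p = 0.746) was -0.14 without those embryos. For ZNF346 the difference of -0.83 ± 0.38 (SE, limma adjusted p = 0.750) was -0.35 without the same embryos. The locus of ZFP3 spanned 7099 to 9959 bases between libraries. A separate unannotated locus beside it held 1.23 and 2.10 FPKM in controls 1 and 3. In FIDAS-5 morulae 1 to 3 such a locus held 2.35, 2.34 and 2.58 FPKM. Control 2, the highest for ZFP3, had none. The part of these loci in the values of ZFP3 was not tested.

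The proteins through which KRAB zinc fingers act were read from the same fit. The list holds 33 names, older and newer symbols of the same gene included; 25 had a value in every library and 22 could be tested. The list was chosen with earlier results of these data known, and its shares were not tested as a set. Of these 22, 0 passed, 15 had a difference above 0 and 7 below, beside 54.2% above 0 over all genes tested. The median was 0.23, against 0.04 over all genes tested. By the unadjusted p 3 were below 0.05, or 13.6% beside 6.64% of all genes. The groups of 5 did not overlap, 2 higher and 3 lower, or 22.7% beside 13.4%. TRIM28, the first corepressor in the chain, was at 52.3, 28.3 and 24.4 FPKM in the controls, against 47.2, 40.8 and 35.0 FPKM in FIDAS-5 morulae, with overlap.

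SETDB1, the methyltransferase recruited by TRIM28, was at 9.60, 2.17 and 3.08 FPKM in the controls, against 13.6, 11.2 and 11.4 FPKM in FIDAS-5 morulae. Its groups did not overlap, and the log2 difference was 1.34 ± 0.46 (SE, limma adjusted p = 0.708). ATF7IP, which stabilises SETDB1, differed the other way, at 17.97, 27.8 and 17.7 FPKM against 11.4, 6.16 and 9.49 FPKM, a log2 difference of -1.15 ± 0.32 (SE, limma adjusted p = 0.688). UHRF1, which brings DNMT1 to newly copied DNA, was at 7.04, 5.53 and 5.29 FPKM against 2.25, 2.78 and 0.797 FPKM, a log2 difference of -1.30 ± 0.37 (SE, limma adjusted p = 0.688). In each of the 3 genes every embryo of one group lay above every embryo of the other.

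MORC2, an ATPase of the HUSH silencing pathway, did not overlap either, at 2.23 to 2.96 FPKM in controls and 3.39 to 3.79 FPKM in FIDAS-5 morulae. The log2 difference of MORC2 was small beside its error, at 0.34 ± 0.28 (SE, limma adjusted p = 0.815). RBBP4, a histone chaperone, also did not overlap, at 245.0 to 334.5 FPKM in the controls, against 211.9 to 237.6 FPKM in FIDAS-5 morulae (log2 difference -0.29 ± 0.19, SE, limma adjusted p = 0.800). Without control 2 the difference of RBBP4 was -0.15. KIAA1551, a retroelement silencing factor that binds SETDB1, overlapped, at 185.1, 76.1 and 143.9 FPKM against 244.0, 152.2 and 230.1 FPKM (log2 difference 0.69 ± 0.36, SE, limma adjusted p = 0.770). Without control 2 the difference of KIAA1551 was 0.32.

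Exact zeros were rare among the expressed zinc finger genes. Of the 162, 131 were never at 0, 27 were listed at 0 in some libraries and 4 in all. Of 77 that reached 5 FPKM in some library, 4 were listed at 0 in another, or 5.19%, beside 4.199% of all genes that reached this level. The 5 genes of highest mean that were listed at 0 in some libraries were ZNF280B, ZNF576, ZNF268, ZNF70 and ZNF652. ZNF70 was at 5.18 FPKM in FIDAS-5 morula 1 and at no more than 0.125 FPKM in the other 5. ZNF652 was at 2.67 FPKM in control 3 and at 0.542 and 0.141 FPKM in FIDAS-5 morulae 2 and 3, and was listed at 0 in the remaining 3.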

How the data were processed

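Each library was 1 morula, 3 per group. Per the submitters' processing notes the authors used TopHat2 2.0.14, Cufflinks 2.2.1 and the build bosTau8; the annotation is not given in the sources used here. What the authors deposited is a Cufflinks gene table for each embryo, in FPKM with bounds, per the file headers. Of 1043 zinc finger entries, 7.29% lie outside the bounds given with them, so bounds served as no error. Values of 1 symbol were summed. Only relative depth, from the step size of the bounds of unannotated loci, was used. Starts are those of the files plus 1. Of 13295 symbols in all 6 libraries, those in merged loci or with a status other than OK were left out, leaving 13185.

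Genes at 1 FPKM or more in 3 of 6 libraries were tested with limma 3.58.1 (R 4.3.3) after taking log2(FPKM + 1), two-sided and without a block, the variance following a trend with the mean, and adjusted by Benjamini-Hochberg over 7319 genes at a threshold of 0.05. The script was tested on simulated data. Genes named were the 10 of highest mean, the 5 smallest p per direction, measured members of role lists, the 5 largest and smallest SDs at a mean of 5 FPKM or more, genes with zeros, tested X-linked genes and 5 partners of smallest p; ZNF438, ZNF496, ZNF554, ZNF566, TRIM28, MORC2 and genes of merged loci were added after their values were seen. The gene set and lists were chosen with earlier results of these data known. Protein features were not analysed here.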

Additional observations from a re-analysis of the deposited data

How the results depend on the processing

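The 15 genes named from the fit kept their direction under each of the 274 alternative values computed. ZNF268 passed only with array weights (log2 difference -3.61, adjusted p = 0.0475), which took the zinc finger genes called from 0 to 1; over 15 alternatives its adjusted p ranged from 0.0475 to 0.692. It met the filter only through the controls, and so has no value without control 1, 2 or 3, nor when genes listed at 0 are left out. Other counts moved as follows. Genes called among all tested were 3, but 1 with no filter, 1 with a mean of at least 5 FPKM, 5 with array weights, 1 with the replicate block, 0 without genes listed at 0, 0 without both libraries with Y-linked transcripts, and 0 to 8 with 1 library left out (8 without control 3). Zinc finger genes without overlap numbered 12, but 5 with a mean of at least 5 FPKM and 19 to 27 with 1 library left out. They numbered 54 of 108 without both libraries with Y-linked transcripts, where 1 FIDAS-5 embryo is set against the controls. Fewer embryos are compared where libraries are left out, and smaller groups overlap less often by design. Those counts therefore cannot be read as a rise from 12. The share of all genes without overlap was not computed for these settings. Zinc finger genes with an unadjusted limma p below 0.05 numbered 6, and 3 to 7 with 1 library left out (3 without control 1). The latter were 2.73% to 6.25% of those tested, beside 4.61% to 8.36% of all genes. With 1 library left to an arm, its spread is assumed to be that of the other group. A pseudocount of 0.1 raised the median SD from 0.41 to 0.51; the cause was not tested. Without ZNF280B the log2 ratio of summed levels was -0.13, and -0.19 to -0.07 under alternatives. With ZNF280B the sums were 1809 ± 53.6 FPKM in controls and 1780.3 ± 175 FPKM in FIDAS-5 morulae (SD, n = 3).

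Whether replicate numbers pair the libraries was not settled by correlations of their deviations from the group mean. Same-number correlations were 0.05, 0.10 and 0.19, and those between other numbers were -0.21 to 0.10. Each control correlated best with its own number, control 2 narrowly (0.103 against 0.102). FIDAS-5 morula 1 correlated best with control 2. With the replicate block 5 zinc finger genes, or 4.42%, had an unadjusted limma p below 0.05, beside 7.82% of all genes. With that block 0 zinc finger genes passed (smallest limma adjusted p = 0.384). With 3 embryos per group the median SE of a zinc finger gene was 0.35 on the log2 scale, which limits the differences that could be detected.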
